A study of Mus musculus with 16 samples.

Results

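Epithelial cells and myeloid cells are the main stromal and antigen-presenting populations that thymocytes meet in the thymus, and they were compared here across all genes on 8 of the 16 arrays of a series on wild-type and Aire-knockout mouse thymus. The epithelial side held 2 arrays of medullary thymic epithelial cells (WT-mTEC) and 2 of cortical thymic epithelial cells (WT-cTEC). The myeloid side held 2 arrays of thymic dendritic cells (WT-tDC) and 2 of thymic macrophages (WT-tMPh). All 8 samples were total RNA from flow-sorted cells of wild-type mice, and they were chosen by their titles. The labels name neither strain, age and sort gates nor any pooling of animals. The other 8 arrays, of mTEC sorted by surface CD80 from wild-type and Aire-knockout mice, entered no fit below and are quoted only as levels. Nothing in the labels says that the 2 arrays of a group came from separate animals, so p-values measure the spread between these arrays, which may be technical.

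Thymic epithelium develops from the pharyngeal endoderm, is held together by desmosomes and keratin filaments, and feeds thymocytes with chemokines, Notch ligands and self-peptides. Cortical epithelium supports positive selection, and medullary epithelium displays proteins of many other tissues under the control of Aire. Dendritic cells and macrophages arise from bone-marrow precursors: they carry the CD18 integrins and Fc receptors of leukocytes, and in the thymus they present antigen and clear dying thymocytes.

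A difference below is the mean of the mTEC and cTEC groups minus the mean of the tDC and tMPh groups on the log2(signal + 4.8) scale, so that a positive value means higher in epithelium. The ± after it is the standard error of the limma fit (4 arrays per lineage, 2 in each cell type). Signals are in array units, scaled by the authors to a common array mean, and they are compared only within a probe set. The constant, the 20th percentile of all values, compresses the differences of dim probe sets. In sorted bulk RNA, fewer cells of a type and less RNA per cell cannot be told apart.

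The labels were checked against marker lists, and 1 array stood apart. The 10 epithelial markers summed to 3879 and 3503 in mTEC and 5424 and 6157 in cTEC, against 187 and 176 in tDC and 2479.6 and 442 in tMPh. The first tMPh array stood below all epithelial arrays but far above the second tMPh array and both tDC arrays. Krt8, the keratin that marks simple epithelium, had 2033 and 2308 in mTEC and 1846 and 2938 in cTEC, against 59.8 and 22 in tDC and 1213 and 172 in tMPh. Itgb2, the CD18 chain of the leukocyte integrins, had 10.2 and 24 in mTEC and 147 and 127 in cTEC, against 739.8 and 583 in tDC and 526 and 856 in tMPh. The 10 myeloid markers summed to 2343 and 3204 in mTEC and 2770.5 and 3178 in cTEC, against 8441 and 8997 in tDC and 6529 and 10407 in tMPh, and the lineages did not overlap. The 6 macrophage markers were highest on the tMPh arrays at 7742 and 14616, and the 6 dendritic cell markers summed to 1402 and 1608 in mTEC and 151 and 341 in cTEC, against 5315 and 7447 in tDC and 636 and 1183 in tMPh. The 9 thymocyte markers measured summed to 378 and 369 in mTEC and 3579.9 and 6648 in cTEC, against 2521 and 2643 in tDC and 5925 and 2652 in tMPh, so that the mTEC arrays alone were low. B cell (3 markers), endothelial (4) and erythroid markers (2) summed to 78.1 to 205, 45.3 to 92.6 and 31.3 to 76.9 over the epithelial arrays, against 99.9 to 268, 49.5 to 84.4 and 59.7 to 137 over the myeloid arrays. Several classical markers did not separate the groups, among them Krt5 (2 to 16.3), Krt14 (2 to 15.1), Cdh1 (53.2 to 81.4) and Itgam (1.4 to 8.5), and these check no label here. What the epithelial and thymocyte signal contributed to the results was not tested. The main counts and those of some lists are also given without the first tMPh array. Other counts, among them those of genes differing within both lineages, are given only with it.

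**Figure D1:**
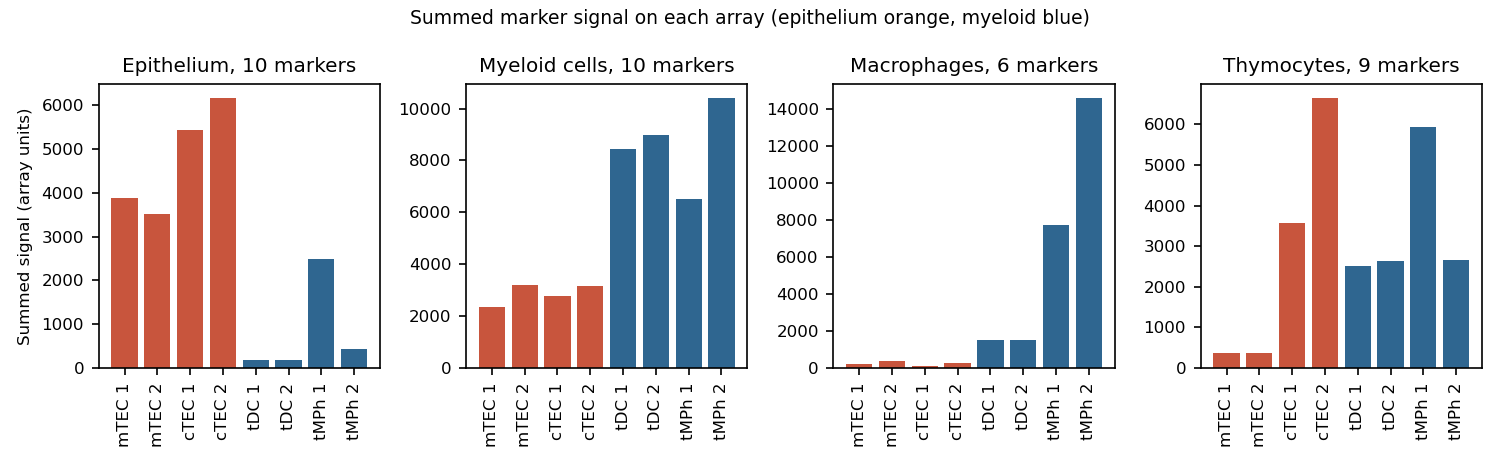
Summed signal (array units, linear axis from 0) of 4 marker lists on each of the 8 arrays, epithelial arrays in orange and myeloid arrays in blue. The first tMPh array has an epithelial sum of 2479.6, against 442 on the second, and the mTEC arrays are the only ones with thymocyte sums below 400.

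Of 12422 probe sets, 1269 were higher in epithelium (10.2%) and 600 were lower (4.83%) at a limma adjusted p under 0.05. Taken per gene, by its brightest probe set, 979 of 8251 genes were higher (11.9%) and 479 lower (5.81%). Those percentages are the background for the list counts below that pass the threshold; at an unadjusted p under 0.05 the shares of genes were 18.5% higher and 11.3% lower. With the replicate block they were 15.8% and 9.83%, and without the first tMPh array 11.6% and 5.33%. All 4 epithelial arrays lay above all 4 myeloid arrays for 6.39% of probe sets and 7.31% of genes, and below them for 4.55% and 5.34%. The fit takes its error from arrays of 1 cell type, and a lineage mean can pass through 1 of its cell types: with lineage as the only factor, so that the spread between cell types counted as error, 382 probe sets were higher and 189 lower. The count of lower probe sets was 1002 with the replicate number as a block, 352 without the first cTEC array, 353 without the first mTEC array and 365 without the second.

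Genes were called shared only when the pooled difference and all 4 differences between an epithelial and a myeloid group passed the threshold in the same direction. This left 136 probe sets shared by both epithelial groups (1.09% of those tested) and 78 shared by both myeloid groups (0.628%), which name 111 and 68 genes (1.35% and 0.824% of genes, the background for counts of shared list members). The smallest differences among them were 1.23 for the epithelial genes and, in size, 1.37 for the myeloid genes, and the medians were 3.09 and -3.40, beside 0.06 over all genes. With the replicate block the counts were 254 and 154, and all 136 and 78 probe sets of the first fit remained. Without the first tMPh array they were 212 and 77, of which 110 and 66 were among the original ones. Leaving out any other array made the epithelial count smaller: 13 without the first and 39 without the second cTEC array, 54 and 48 without the first and second mTEC arrays, 72 and 85 without the first and second tDC arrays, and 47 without the second tMPh array. For the myeloid count the values were 35 and 45 without either cTEC array, 46 and 42 without either mTEC array, 44 without the first tDC array and 46 without the second tMPh array.

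The 12 shared epithelial genes with the largest differences are described first. Ces1d, a carboxylesterase, had 717 and 640.1 in mTEC and 122 and 63.7 in cTEC, against 0.4 and 1.3 in tDC and 6.1 and 1 in tMPh; the difference was 5.24 ± 0.32 (adjusted p = 0.000164), and the probe set is of a kind that can match several family members. Both mTEC arrays were above both cTEC arrays, which were above every myeloid array. Timp3, an inhibitor of matrix metalloproteinases, had 485 and 914 in mTEC and 529.8 and 628 in cTEC, against 0.9 and 10.6 in tDC and 55.2 and 27.8 in tMPh, a difference of 4.94 ± 0.39 (adjusted p = 0.000267). Its 2 epithelial groups overlapped, and both tMPh arrays lay above the tDC arrays. Perp, a desmosomal membrane protein that p63 controls, had 1000.5 and 1041 in mTEC and 1458 and 1442 in cTEC, against 12.3 and 16.9 in tDC and 203 and 48.3 in tMPh (4.76 ± 0.39, adjusted p = 0.000321). Dsp, desmoplakin, which ties keratin filaments to the desmosome, had 876 and 762 in mTEC and 1588 and 1643 in cTEC, against 9.5 and 13.6 in tDC and 293 and 169 in tMPh (4.25 ± 0.25, adjusted p = 0.000164). In both desmosomal genes cTEC was the highest group and the tMPh arrays lay above the tDC arrays. Tnc, the matrix glycoprotein tenascin C, had 577 and 641 in mTEC and 1188 and 1052 in cTEC, against 5.6 and 8.6 in tDC and 224 and 26.3 in tMPh, with 4.72 ± 0.54. Col4a1, a basement membrane collagen, had 320.3 and 537 in mTEC and 354 and 412 in cTEC, against 5.6 and 1.9 in tDC and 72.6 and 9.1 in tMPh, with 4.61 ± 0.50. The first tMPh array was the highest of the 4 myeloid arrays for both matrix genes. The other members of the top 12 were Ces2g, a second carboxylesterase (4.67 ± 0.41), Me1, the cytosolic malic enzyme (4.42 ± 0.46), Pfn2, an actin-binding profilin (4.34 ± 0.42), Tmprss2, a transmembrane serine protease (4.25 ± 0.44), Lmo7, a LIM-domain protein of adherens junctions (4.25 ± 0.31), and Slc6a8, the creatine transporter (4.20 ± 0.36); their adjusted p values lay between 0.000175 and 0.000606. Averaged over all probe sets of the gene, the difference was 2.38 for Dsp and 1.96 for Slc6a8.

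The 12 shared myeloid genes with the largest differences follow. Mpeg1, the pore-forming perforin-2, had 52.8 and 38.5 in mTEC and 55.6 and 96.5 in cTEC, against 2334 and 3772 in tDC and 1407 and 4033 in tMPh (-5.41 ± 0.38, adjusted p = 0.000175). Every myeloid array exceeded every epithelial array for it by more than an order of magnitude. Plbd1, a lysosomal phospholipase B-like protein, had 88.9 and 63 in mTEC and 42.5 and 66 in cTEC, against 2779.8 and 3881 in tDC and 1483 and 2543 in tMPh (-5.22 ± 0.28, adjusted p = 0.000164). Tyrobp, the adapter DAP12 that couples activating receptors to Syk, had 44.1 and 33.1 in mTEC and 16.4 and 59.3 in cTEC, against 1615 and 901 in tDC and 1083 and 2159 in tMPh (-5.10 ± 0.41, adjusted p = 0.000282). None of these 3 passed between tDC and tMPh (adjusted p = 0.884, 0.454 and 0.884). The complement genes C1qa and C1qb, by contrast, were shared but highest in macrophages: C1qb had 23.5 and 53.3 in mTEC and 3.1 and 38.1 in cTEC, against 285 and 265 in tDC and 2243 and 4022 in tMPh (-5.07 ± 0.52, adjusted p = 0.000566). C1qa had 51.1 and 45.8 in mTEC and 32.9 and 55.5 in cTEC, against 525 and 300.5 in tDC and 2144 and 2666 in tMPh (-4.29 ± 0.27, adjusted p = 0.000164). Ly86, which partners the receptor RP105 on leukocytes, differed by -4.88 ± 0.32, Entpd1, the ectonucleotidase CD39, by -4.70 ± 0.34, Lgals3, galectin-3, by -4.36 ± 0.28, Cd68, a lysosomal glycoprotein, by -4.31 ± 0.30, Cd48, a ligand of the SLAM family, by -4.28 ± 0.28, Rasa4, a GTPase-activating protein for Ras, by -4.10 ± 0.25, and Il18, a cytokine of the interleukin-1 family, by -4.09 ± 0.34. Their adjusted p values lay between 0.000164 and 0.000325. Cd68 and Il18 were, like C1qa and C1qb, higher in tMPh than in tDC (tDC minus tMPh -2.19 and -2.45, limma adjusted p = 0.02845 and 0.03013). Averaged over all probe sets of the gene, the difference was -2.82 for Mpeg1, -2.73 for C1qb and -2.18 for Cd68.

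**Figure D2:**
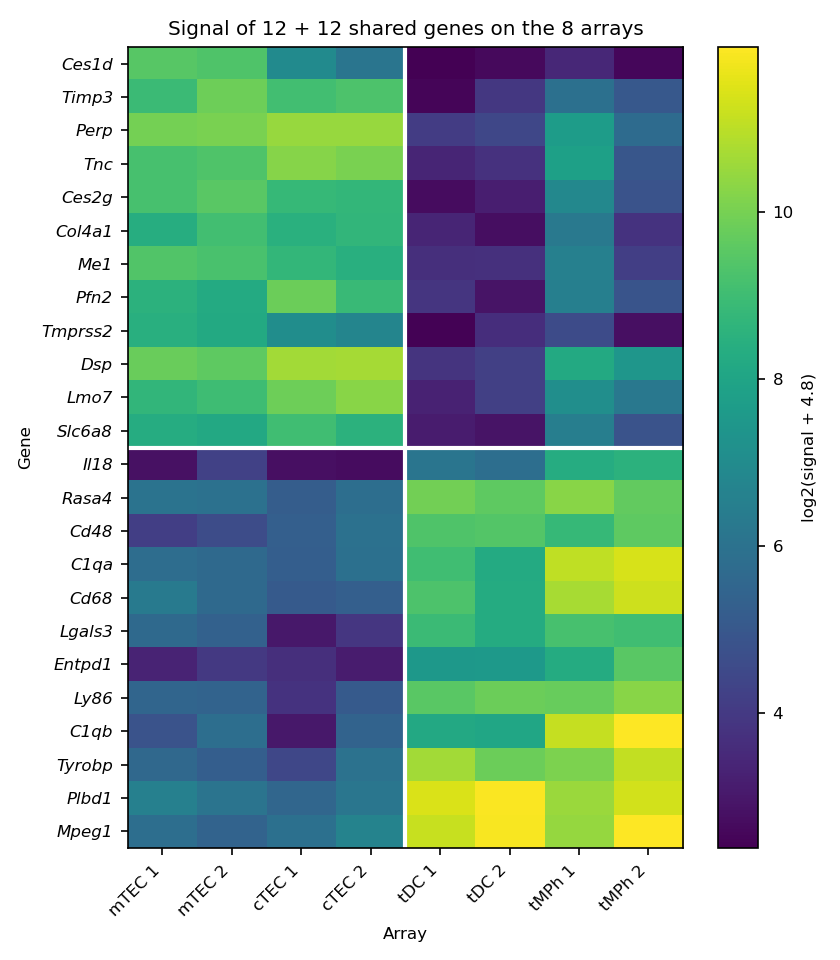
Heat map of log2(signal + 4.8) for the 12 shared epithelial genes (top) and the 12 shared myeloid genes (bottom) with the largest differences, on the mTEC, cTEC, tDC and tMPh arrays from left to right. The tDC columns are dark in the upper block, the first tMPh column is brighter there than the second (Tnc 224 against 26.3), and the macrophage columns are brightest for C1qa and C1qb in the lower block, with C1qb at 2243 and 4022.

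Many of the shared epithelial genes had signal on the first tMPh array. The median signal of the 111 shared epithelial genes was 179 on the mTEC arrays and 185 on the cTEC arrays, against 8 on the tDC arrays, 31.2 on the first tMPh array and 10.7 on the second. The first tMPh array was above both tDC arrays for 82 of these genes and above the second tMPh array for 95. The second tMPh array was above both tDC arrays for 56. Over all probe sets the median signal was 28.5 on the first and 25.5 on the second tMPh array, against 20.7 and 24.3 on the tDC arrays. The same counts over all genes are not given, so the 82, 95 and 56 genes cannot be set against a background. As a share of the gene's cTEC mean, the median was 16% on the first tMPh array and 6.43% on the second. On the 8 CD80-sorted mTEC arrays, which were not fitted, the same genes had a median signal of 178, and the 68 shared myeloid genes one of 33.5. On the mTEC and cTEC arrays the myeloid genes had medians of 35.6 and 26.1, against 330.5 on the tDC arrays and 342 and 515 on the 2 tMPh arrays.

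Promoters of these genes are shown as a description. The members of each set were selected for a common direction, so that they move together is no finding. Myeloid promoters are known to be bound by PU.1, a factor of the ETS family encoded by Spi1. Whether PU.1 had a part in these differences was not tested. RefSeq promoter windows (GRCm38.p6, 250 bases before to 50 after the start of the gene) were at hand for 79 of the 111 shared epithelial and 53 of the 68 shared myeloid genes. In the first 3 windows below the capitals mark the ETS core GGAAGT or its reverse complement ACTTCC, and in the last they mark GGGCGGG, a core of Sp/KLF factors, or its reverse complement CCCGCCC. The windows were picked by hand, and each holds its marked motif, which not every promoter of its set does.
C1qb, chr4:136886151-136886450 on the minus strand: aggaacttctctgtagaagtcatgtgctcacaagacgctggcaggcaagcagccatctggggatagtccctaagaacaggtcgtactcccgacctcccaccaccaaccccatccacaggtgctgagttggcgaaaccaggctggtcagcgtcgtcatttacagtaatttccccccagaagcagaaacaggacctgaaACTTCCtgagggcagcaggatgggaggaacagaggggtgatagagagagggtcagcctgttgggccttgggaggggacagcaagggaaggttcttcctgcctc
Cd68, chr11:69666121-69666420 on the minus strand: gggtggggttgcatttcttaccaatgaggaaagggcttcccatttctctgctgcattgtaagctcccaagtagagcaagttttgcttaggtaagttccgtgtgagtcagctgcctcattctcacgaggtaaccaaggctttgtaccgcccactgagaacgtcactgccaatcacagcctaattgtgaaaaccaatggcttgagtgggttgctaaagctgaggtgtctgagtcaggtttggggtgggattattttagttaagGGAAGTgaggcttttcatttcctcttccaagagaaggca
Hcls1, chr16:36934733-36935032 on the plus strand: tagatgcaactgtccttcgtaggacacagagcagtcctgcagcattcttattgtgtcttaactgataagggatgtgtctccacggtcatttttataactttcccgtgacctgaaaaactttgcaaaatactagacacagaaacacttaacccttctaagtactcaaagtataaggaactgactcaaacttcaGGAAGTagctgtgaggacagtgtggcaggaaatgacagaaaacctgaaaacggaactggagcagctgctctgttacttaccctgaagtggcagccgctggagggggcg
Dsp, chr13:38151044-38151343 on the plus strand: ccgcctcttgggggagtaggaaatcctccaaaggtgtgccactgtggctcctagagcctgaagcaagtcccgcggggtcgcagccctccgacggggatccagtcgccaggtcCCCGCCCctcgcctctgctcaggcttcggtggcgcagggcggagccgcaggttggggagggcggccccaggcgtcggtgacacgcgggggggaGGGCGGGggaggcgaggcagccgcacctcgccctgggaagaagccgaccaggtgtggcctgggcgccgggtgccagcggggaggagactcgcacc
GGAAGT on either strand was held by 17 of the 79 epithelial promoters (21.5%) and 26 of the 53 myeloid promoters (49.1%), beside 31.1% of the genes on the array with a window and 26.6% of all 27025 genes in the table. The longer PU.1 form GAGGAAGT, which contains GGAAGT, was held by 2 epithelial and 6 myeloid promoters (2.53% and 11.3%, beside 3.30% on the array). For GGGCGGG the shares were 54.4% of epithelial and 34.0% of myeloid promoters, beside 48.3% on the array. The epithelial promoters were richer in G and C, with a median of 62.3%, against 53.3% for the myeloid ones and 59.7% on the array. These shares describe letters in a window, are 3 of 14 motifs looked at, and were not tested.

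Lists of epithelial genes held more higher than lower members. Of 16 keratins measured, 10 rose and none fell (median 1.58; 0 were lower at an unadjusted p under 0.05), yet 0 were shared. A gene is said to rise through 1 cell type where that group passed against both groups of the other lineage and its partner against neither. Krt20, Krt19 and Krt10 rose through mTEC. Krt20, a keratin of intestinal and urothelial lining, had 1334 and 813 in mTEC and 24.4 and 28 in cTEC, against 5.8 and 7.9 in tDC and 10.9 and 8 in tMPh (3.81 ± 0.27). Krt7, by contrast, was high in both epithelial groups, with 838 and 571 in mTEC and 927 and 523 in cTEC, against 2.7 and 2.7 in tDC and 189 and 22.3 in tMPh (4.91 ± 0.55, adjusted p = 0.000801), with the first tMPh array far above the other myeloid arrays. Krt8, given above, differed by 4.02 ± 0.57 (adjusted p = 0.00232, and 0.0766 with cell type as a random block), and its partner Krt18 by 4.26 ± 0.72. Without the first tMPh array 4 keratins became shared: Krt7, Krt8, Krt17 and Krt18. Of 33 junction genes, 16 rose and 0 fell (median 1.44; 0 lower at an unadjusted p under 0.05), and 7 were shared: Dsp, Perp, Dsg2 (3.61 ± 0.32) and Dsc2 (3.36 ± 0.55) of the desmosome, Ppl, periplakin (2.21 ± 0.24), the gap junction protein Gja1 (3.63 ± 0.38) and Epcam, the epithelial adhesion molecule. Epcam had 343 and 276 in mTEC and 89.6 and 55.6 in cTEC, against 8.1 and 23.6 in tDC and 9.5 and 8.8 in tMPh (3.23 ± 0.32, adjusted p = 0.000544), higher on the mTEC than on the cTEC arrays. The gap junction gene Gjb2 rose through mTEC, with 1236 and 874 in mTEC and 31.9 and 50.8 in cTEC, against 20.2 and 23.1 in tDC and 20.9 and 16.2 in tMPh (3.13 ± 0.26), as did the tight junction genes Cldn3, Cldn4 and Cldn7 (1.64 ± 0.33, 2.05 ± 0.37 and 2.85 ± 0.37).

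Of 27 basement membrane genes and receptors, 17 rose and 1 fell (median 1.48). Both chains of the laminin receptor integrin alpha6 beta4, which anchors epithelium in hemidesmosomes, were shared: Itga6 had 172 and 171 in mTEC and 141 and 152 in cTEC, against 10.6 and 14.3 in tDC and 25.7 and 23.3 in tMPh (2.87 ± 0.23, adjusted p = 0.000276). Itgb4 had 125 and 203 in mTEC and 254 and 230.2 in cTEC, against 3.9 and 4.5 in tDC and 36 and 3.2 in tMPh (3.98 ± 0.48, adjusted p = 0.00104). For Itgb4 the highest myeloid array was again the first tMPh array. Lamb1 (3.72 ± 0.41), a laminin chain, Col4a1 and Sdc1 (3.23 ± 0.35), the heparan sulphate proteoglycan syndecan-1, were the other shared members. Itgb5, a chain of the vitronectin receptor alphav beta5, was the member that fell, with 79.6 and 109 in mTEC and 184 and 130 in cTEC, against 176 and 179.8 in tDC and 796 and 1049 in tMPh (-1.71 ± 0.23, adjusted p = 0.0019), highest in macrophages.

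Among regulators, 17 of 34 epithelial transcription factors rose and 0 fell (median 0.86; 0 lower at an unadjusted p under 0.05). Trp63, which encodes the p63 needed for stratified and thymic epithelium, had 149 and 160.1 in mTEC and 418 and 268 in cTEC, against 12.2 and 19.7 in tDC and 61.6 and 46.2 in tMPh (2.75 ± 0.26, adjusted p = 0.000422). The splicing regulator Esrp1, found in epithelial cells, had 180.2 and 162 in mTEC and 92 and 70.9 in cTEC, against 1.1 and 4.7 in tDC and 14.9 and 0.6 in tMPh (3.80 ± 0.42, adjusted p = 0.000762). Pax9, needed for the thymic rudiment, was shared at low signals (1.55 ± 0.24, highest array 23.2), while Foxn1, the master regulator of thymic epithelium, rose by 1.73 ± 0.29 at signals of at most 42.2 and was not shared. Pax1 and Hey1 (2.76 ± 0.39 and 2.14 ± 0.27) were lower in mTEC than in cTEC (mTEC minus cTEC -2.83 ± 0.55 and -3.04 ± 0.38, adjusted p = 0.0141 and 0.00194), and Tfap2c rose through mTEC (2.26 ± 0.31). Of 31 receptors and signalling genes 15 rose and 0 fell (0 at an unadjusted p under 0.05). Osmr, the oncostatin M receptor, had 179 and 182 in mTEC and 374 and 288 in cTEC, against 1.3 and 5 in tDC and 46.7 and 15.5 in tMPh (3.97 ± 0.34, adjusted p = 0.000329). Its relative Lifr, the LIF receptor, had 136 and 113 in mTEC and 1599.8 and 1186 in cTEC, against 12.1 and 24.2 in tDC and 101 and 59.6 in tMPh (3.31 ± 0.28), and its mTEC arrays lay far below its cTEC arrays (mTEC minus cTEC -3.42 ± 0.40, adjusted p = 0.00161). Fgfr2, the receptor through which FGF7 and FGF10 expand thymic epithelium, rose by 3.06 ± 0.28. Bmpr1a (2.08 ± 0.20), the ephrin Efnb2 (2.67 ± 0.35) and tissue factor, F3 (3.47 ± 0.39), were shared.

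Thymic stromal ligands rose in 13 of 28 cases and fell in 0 (median 0.94; 0 lower at an unadjusted p under 0.05), with 0 shared. Ccl25, the chemokine that draws CCR9-bearing precursors, had 1589 and 1141 in mTEC and 2083 and 3715 in cTEC, against 20.4 and 13.9 in tDC and 1834 and 263 in tMPh (3.97 ± 0.55, adjusted p = 0.00194). The first tMPh array lay within the range of the epithelial arrays for it, and Ccl25, Wnt4 and Flt3l became shared without that array. Cxcl12, the ligand of CXCR4, had 54.5 and 54.6 in mTEC and 1245 and 1249 in cTEC, against 2.6 and 4.8 in tDC and 366 and 87.6 in tMPh (2.79 ± 0.40), highest in cTEC. Dll1, a Notch ligand, rose by 2.54 ± 0.34. Igf2, a growth factor, rose through mTEC by 1.93 ± 0.28. Of the 8 epithelial protease and presentation genes measured, 3 rose and 2 fell. Aire had 1386 and 2887 in mTEC and 37.8 and 113 in cTEC, against 65.2 and 36.1 in tDC and 47.3 and 33.3 in tMPh (2.95 ± 0.40, adjusted p = 0.00179) and so rose through mTEC. Ctsl, the lysosomal protease of cortical epithelium, rose by 2.07 ± 0.38, with tMPh arrays of 1709 and 1115 inside the epithelial range. Ctsh fell (-2.29 ± 0.36) through cTEC alone: it had 1150.4 and 1346 in mTEC and 36.2 and 92.3 in cTEC, against 1348 and 1569.8 in tDC and 845 and 1954 in tMPh. Cd83, a surface protein of mature dendritic cells that cortical epithelium also carries, fell by 1.25 ± 0.25, with 288 and 201 in mTEC and 1510.4 and 1596 in cTEC, against 2137 and 1575 in tDC and 1353 and 1009 in tMPh; its call was lost without mTEC 2 (adjusted p 0.0662).

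Lists of leukocyte genes held more lower than higher members. Of 27 integrins and surface glycoproteins, 14 fell, 1 rose and 9 were shared by both myeloid groups (median -1.74). Itgb2 differed by -3.62 ± 0.29 (adjusted p = 0.000276); its cTEC arrays lay above its mTEC arrays (mTEC minus cTEC -2.77 ± 0.41, adjusted p = 0.0043). Its partner Itgax, CD11c, had 39.1 and 54.4 in mTEC and 23.9 and 27.3 in cTEC, against 1188 and 1296 in tDC and 186 and 277 in tMPh (-3.77 ± 0.23, adjusted p = 0.000164), highest in tDC. Sirpa, the inhibitory receptor for CD47, had 44.2 and 35.4 in mTEC and 14.5 and 10.2 in cTEC, against 158 and 141 in tDC and 1013 and 1209 in tMPh (-3.91 ± 0.22, adjusted p = 0.000164), highest in tMPh. Ptprc, the leukocyte phosphatase CD45, had 16.4 and 51.8 in mTEC and 124 and 445 in cTEC, against 214 and 950.5 in tDC and 366 and 985 in tMPh (-2.53 ± 0.62, adjusted p = 0.0261) and was not shared; the second cTEC array was above the first tDC and tMPh arrays, and that cTEC array also had the highest thymocyte marker sum. In fits that left out 1 array (mTEC 1 being the first mTEC array, and so on), the call of Ptprc was lost without mTEC 1, cTEC 1, tDC 2 or tMPh 2 (highest adjusted p 0.1). Emb, embigin, was the member that rose (1.46 ± 0.31); its call was lost without mTEC 1, cTEC 1 or cTEC 2 (highest adjusted p 0.0602).

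Of 30 Fc receptor, adapter and kinase genes, 18 fell and 0 rose (median -1.47; 1 higher at an unadjusted p under 0.05), 6 of them shared. The inhibitory Fc receptor Fcgr2b had 5.4 and 5.8 in mTEC and 5.1 and 12.3 in cTEC, against 186 and 141 in tDC and 68.4 and 150 in tMPh (-3.52 ± 0.34, adjusted p = 0.000446). Btk, the Tec kinase mutated in X-linked agammaglobulinaemia, had 19.7 and 12.7 in mTEC and 10.5 and 11.2 in cTEC, against 441 and 153 in tDC and 131 and 154 in tMPh (-3.46 ± 0.35, adjusted p = 0.000565). Inpp5d, the inositol phosphatase SHIP1, fell by 2.93 ± 0.30 and Pik3cd, the delta isoform of PI3-kinase, by 3.71 ± 0.39. Lcp2, the adapter SLP-76, fell (-2.41 ± 0.22), with cTEC arrays of 124 and 186 beside mTEC arrays of 17.1 and 17.2. As for Itgb2, and for Hcls1 below, the cTEC arrays also had the higher thymocyte marker sums, whose part was not tested. Of 25 cytokine receptors, 9 fell and 1 rose. Csf1r, the receptor that macrophages need, had 59.7 and 91.9 in mTEC and 34.6 and 40.2 in cTEC, against 308 and 374 in tDC and 1163 and 2325 in tMPh (-3.71 ± 0.28, adjusted p = 0.000245). Il10ra (-3.63 ± 0.36) and Tnfrsf1b (-2.58 ± 0.31) were shared as well, and Flt3, the receptor of dendritic cell growth, fell through tDC (-1.96 ± 0.24). Il4ra was the receptor that rose (1.17 ± 0.30), a call kept only without tDC 1 or tMPh 1 (highest adjusted p 0.0991).

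Of 33 haematopoietic transcription factors, 7 fell, 0 rose and 0 were shared (median -0.11; 5 higher at an unadjusted p under 0.05, and 5 with the replicate block). Spi1 itself had 4.2 and 39.9 in mTEC and 16 and 25.7 in cTEC, against 104 and 162 in tDC and 44.9 and 93.1 in tMPh (-2.11 ± 0.51, adjusted p = 0.0243), a call kept only without mTEC 1, mTEC 2 or tMPh 1 (highest adjusted p 0.0931). Batf3, needed for cross-presenting dendritic cells, had 197 and 183 in mTEC and 27.7 and 42.2 in cTEC, against 1486 and 995 in tDC and 269 and 246 in tMPh (-2.70 ± 0.24), highest in tDC and with mTEC near tMPh. Irf5 (-1.71 ± 0.22), Lyl1 (-2.10 ± 0.31) and Pou2f2 (-1.50 ± 0.27) also fell. Of 21 chemokine and chemoattractant receptors 5 fell and 1 rose; none was shared. Cxcr5, the receptor that rose (0.89 ± 0.25), lost its call in each of the 8 fits without 1 array (highest adjusted p 0.154). Cxcr3 fell by 2.38 ± 0.43, and Ccr7, which brings dendritic cells to the medulla, had 53.3 and 38.8 in mTEC and 3.2 and 15.5 in cTEC, against 307 and 218 in tDC and 9.2 and 10.6 in tMPh, a call kept only without cTEC 2 (highest adjusted p 0.141). Without the first tMPh array, counts in this list were 3 lower and 0 higher.

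Macrophage genes fell in 18 of 31 cases and rose in 2 (median -2.18), 8 of them shared with dendritic cells. Il1b, an inflammatory cytokine, was shared and highest in dendritic cells, with 40.5 and 29.4 in mTEC and 13.1 and 38.2 in cTEC, against 1823 and 679 in tDC and 205 and 128 in tMPh (-3.71 ± 0.40). Mmp9 and Pltp were the members that rose. Mmp9, a gelatinase, had 179 and 114 in mTEC and 613 and 377 in cTEC, against 3.6 and 1.7 in tDC and 64.8 and 4 in tMPh (4.31 ± 0.58, adjusted p = 0.00179), highest in cTEC. Pltp, the phospholipid transfer protein, had 179 and 176 in mTEC and 1359.5 and 1646 in cTEC, against 68.7 and 110.3 in tDC and 666 and 1052 in tMPh (0.91 ± 0.26, adjusted p = 0.0469), a call kept only without tDC 2 or tMPh 2 (highest adjusted p 0.155). Dendritic cell genes fell in 10 of 24 cases and rose in 0 (3 higher at an unadjusted p under 0.05, 3 with the replicate block), with 2 shared, Itgax and the costimulatory ligand Cd86 (-3.59 ± 0.34). Of 29 phagocyte oxidase and granule genes, 12 fell and 3 rose. The lysosomal proteases Ctsc (-3.21 ± 0.28) and Lgmn (-3.31 ± 0.28) were shared. Ctss, the invariant chain protease of dendritic cells, had 1812 and 1818 in mTEC and 189 and 497 in cTEC, against 3066 and 3905 in tDC and 2380.4 and 3561 in tMPh (-2.08 ± 0.35). The mTEC arrays lay between the cTEC and the myeloid arrays. Lyz2, lysozyme, had the same order of groups, with 485 and 532 in mTEC and 18.5 and 78.3 in cTEC, against 903 and 852 in tDC and 1296 and 1464 in tMPh (-2.88 ± 0.37). The antimicrobial Camp (1.60 ± 0.26), the calprotectin subunit S100a8 (1.87 ± 0.41) and the chitinase-like Chil3 (1.15 ± 0.25) rose, each through mTEC; the call of S100a8 was lost without mTEC 2 or tDC 1, and that of Chil3 lost without mTEC 1, mTEC 2, cTEC 1 or tDC 2 (highest adjusted p 0.0779 and 0.0726).

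**Figure D3:**
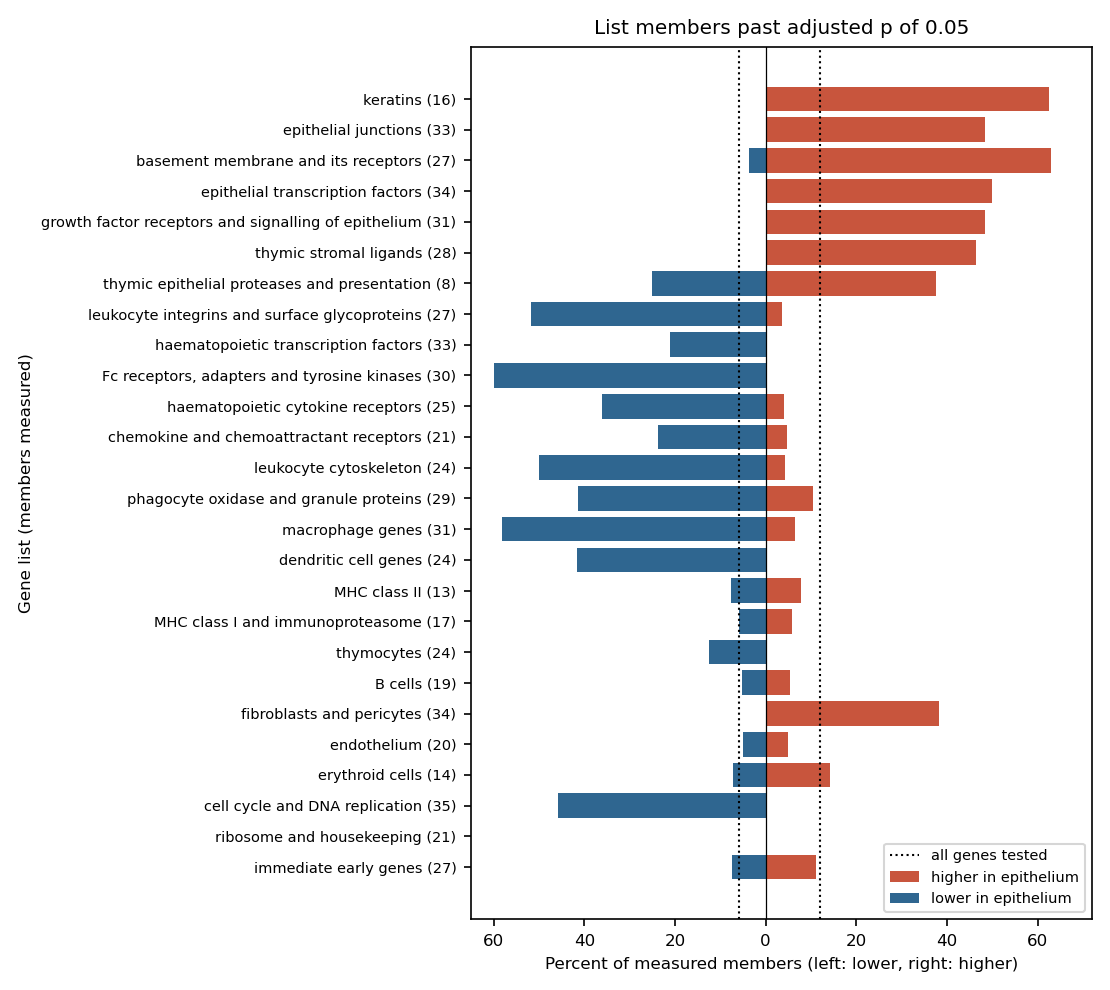
Percent of measured members of each gene list that were higher in epithelium (orange, right) or lower (blue, left) at an adjusted p under 0.05, with the number measured in brackets. Dotted lines mark the 11.9% higher and 5.81% lower among all genes; epithelial lists extend right, leukocyte and cell cycle lists left, and both MHC lists stay near the lines.

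The remaining lists varied. Of 13 MHC class II genes, 1 rose and 1 fell, and of 17 MHC class I and immunoproteasome genes H2-Q10 rose (1.95 ± 0.25) and Psme1 fell (-1.37 ± 0.27). Psme1 had 848 and 692 in mTEC and 137 and 231 in cTEC, against 2352.5 and 1639.5 in tDC and 541 and 418 in tMPh. Its mTEC arrays thus lay above its tMPh arrays, and cTEC was lowest. In the class II list Ifi30, a lysosomal thiol reductase, fell (-2.41 ± 0.25), and H2-Oa, a chain of the inhibitor DO, rose (1.69 ± 0.46), a call kept only without tMPh 1 or tMPh 2 (highest adjusted p 0.135). Of 35 cell cycle and replication genes, 16 fell, 0 rose and none was shared (median -1.12; 1 higher at an unadjusted p under 0.05). Without the first tMPh array 8 fell, and with the replicate block 22. Top2a, the topoisomerase of dividing cells, had 37.2 and 71.2 in mTEC and 145 and 284 in cTEC, against 533 and 576 in tDC and 308 and 213 in tMPh (-1.82 ± 0.31, adjusted p = 0.00472). The mTEC arrays were lowest, the tDC arrays highest, and cTEC overlapped with tMPh. Mcm3 (-1.40 ± 0.23), Tk1 (-1.80 ± 0.27) and Aurkb (-1.34 ± 0.22) fell too. The summed thymocyte markers were likewise lowest on the mTEC arrays but highest on cTEC 2, and their part in the cell cycle counts was not tested. In the ribosome and housekeeping list 0 of 21 rose and 0 fell (before adjustment, at p under 0.05, 0 were higher and 2 lower). The smallest adjusted p was 0.0838, for Tubb5 (0.0246 with the replicate block, which calls it lower). Another, dimmer probe set of Tubb5 was lower in the main fit (-1.08 ± 0.30, limma adjusted p = 0.0424).

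Genes of fibroblasts and pericytes rose in 13 of 34 cases and fell in 0 (1 at an unadjusted p under 0.05), with 5 shared. Col5a2, a fibrillar collagen chain, had 243 and 347 in mTEC and 128 and 76.9 in cTEC, against 2.1 and 5.9 in tDC and 12 and 6.1 in tMPh (4.02 ± 0.32). Acta2, smooth muscle actin, had 312 and 309.6 in mTEC and 74.5 and 82.8 in cTEC, against 6.9 and 6.7 in tDC and 11.5 and 0.7 in tMPh (3.95 ± 0.36). Dcn, decorin, had 309 and 333 in mTEC and 425 and 219.8 in cTEC, against 8.6 and 16.8 in tDC and 87.6 and 23.8 in tMPh (3.43 ± 0.41). The 5 fibroblast markers summed to 513 and 554 in mTEC and 582 and 379 in cTEC, against 182 and 193 in tDC and 308 and 229.7 in tMPh. Whether these transcripts came from epithelial cells was not tested. Of 24 thymocyte genes 3 fell and 0 rose (0 at an unadjusted p under 0.05). The 3 were the T cell coreceptor genes Cd4, Cd8a and Cd8b1; 15 of the 24 were lower in mTEC than in cTEC, beside 1.94% of all genes. Cd8b1 had 46.3 and 55.2 in mTEC and 1253 and 2121 in cTEC, against 594 and 530.4 in tDC and 2405 and 740.5 in tMPh (-1.53 ± 0.38); its call was kept only without cTEC 2, tMPh 1 or tMPh 2, that of Cd4 kept only without mTEC 1 or tMPh 1 and that of Cd8a kept only without tMPh 1 or tMPh 2 (highest adjusted p 0.106, 0.106 and 0.119). Among 27 immediate early genes Gadd45a (2.20 ± 0.26), Fosl1 (2.34 ± 0.34) and Dnajb1 (1.23 ± 0.26) rose, and Egr2 (-1.07 ± 0.22) and Nr4a1 (-1.71 ± 0.36) fell. Both counts are near the 11.9% higher and 5.81% lower of all genes, so only the genes themselves are described. The call of Dnajb1 was lost without mTEC 1 or cTEC 1, that of Egr2 lost without mTEC 2 or cTEC 1 and that of Nr4a1 lost without mTEC 1, cTEC 1 or tDC 1. Of 24 leukocyte cytoskeleton genes 12 fell and 1 rose. In addition, 1 of 19 B cell genes rose (Fcer2a, 2.39 ± 0.33) and 1 fell (Cd22, -2.01 ± 0.30), and 1 of 20 endothelial genes rose (Tek, 1.24 ± 0.25) and 1 fell (Eng, -1.26 ± 0.27, a call lost without mTEC 1, cTEC 1 or tDC 1). In the main fit neither the B cell nor the endothelial list held larger shares than the 11.9% higher and 5.81% lower of all genes. Without the first tMPh array 5 B cell genes were higher.

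Pairs of related genes were compared next. Of 50 pairs set up as a haematopoietic gene with a related gene of wider or epithelial use, 35 had both members on the array. In 10 pairs the related gene rose and the haematopoietic one fell, in 11 the haematopoietic one alone fell, in 4 the related one alone rose, and in 7 neither passed. The 4 were Itga3 with Itgal, Itga6 with Itgam, Krt8 with Vim and Sdc1 with Srgn. Itgam had low signals on all arrays, as given above. The last 2 pairs are loose, since Vim is not restricted to blood cells and Sdc1 and Srgn are not of 1 gene family. Some genes stand in more than 1 pair, so that the 35 pairs hold 31 haematopoietic genes. The pairs were put together from what is known of these genes, so their direction is no independent evidence. Nckap1 and Nckap1l (HEM1) are the alternative subunits of the WAVE complex, which drives actin branching: Nckap1 rose by 3.59 ± 0.31 and was shared, and Nckap1l fell (-2.32 ± 0.35). Nckap1 had 370.2 and 707 in mTEC and 685 and 793 in cTEC, against 18.2 and 42.9 in tDC and 77.9 and 73 in tMPh. Nckap1l had 14.1 and 29.8 in mTEC and 22.8 and 44.8 in cTEC, against 219 and 112 in tDC and 168 and 118 in tMPh. The lineages did not overlap for either gene. Cortactin, Cttn, rose by 2.46 ± 0.24 and its haematopoietic relative Hcls1 fell (-3.80 ± 0.28); Hcls1 had 12 and 11.9 in mTEC and 68.5 and 59 in cTEC, against 856 and 399.6 in tDC and 396 and 353 in tMPh. The kindlins Fermt2 (1.97 ± 0.31) and Fermt3 (-2.27 ± 0.37), which activate integrins, split likewise, as did the plastins Pls3 (2.43 ± 0.25) and Lcp1 (-1.35 ± 0.36), the integrin chains Itgb4 and Itgb2, the G-protein subunits Gna11 (1.38 ± 0.30) and Gna15 (-1.68 ± 0.31), the Tec kinases Bmx (1.68 ± 0.34) and Btk, the ETS factors Elf3 (2.73 ± 0.47) and Spi1, and the receptor phosphatases Ptprk (2.10 ± 0.29) and Ptprf (1.71 ± 0.44) against Ptprc. The call of Lcp1 was kept only without cTEC 2 or tMPh 1, that of Ptprf kept only without tMPh 1 or tMPh 2 and that of Gna11 lost without mTEC 2, cTEC 2 or tDC 1 (highest adjusted p 0.139, 0.12 and 0.0703). Pairs that did not split included the coronins, where Coro1b (-1.56 ± 0.24) and Coro1c (-1.48 ± 0.28) fell and Coro1a was at -1.57 ± 0.45 (adjusted p = 0.0505, and 0.0111 with the replicate block), and Rac1 and Rac2 (-0.32 ± 0.54 and -0.11 ± 0.35, adjusted p = 0.794 and 0.896). Capg, a gelsolin-family protein of macrophages, rose (1.46 ± 0.34) against its role in the pair, a call kept only without tDC 1 or tMPh 1 (highest adjusted p 0.0857).

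**Figure D4:**
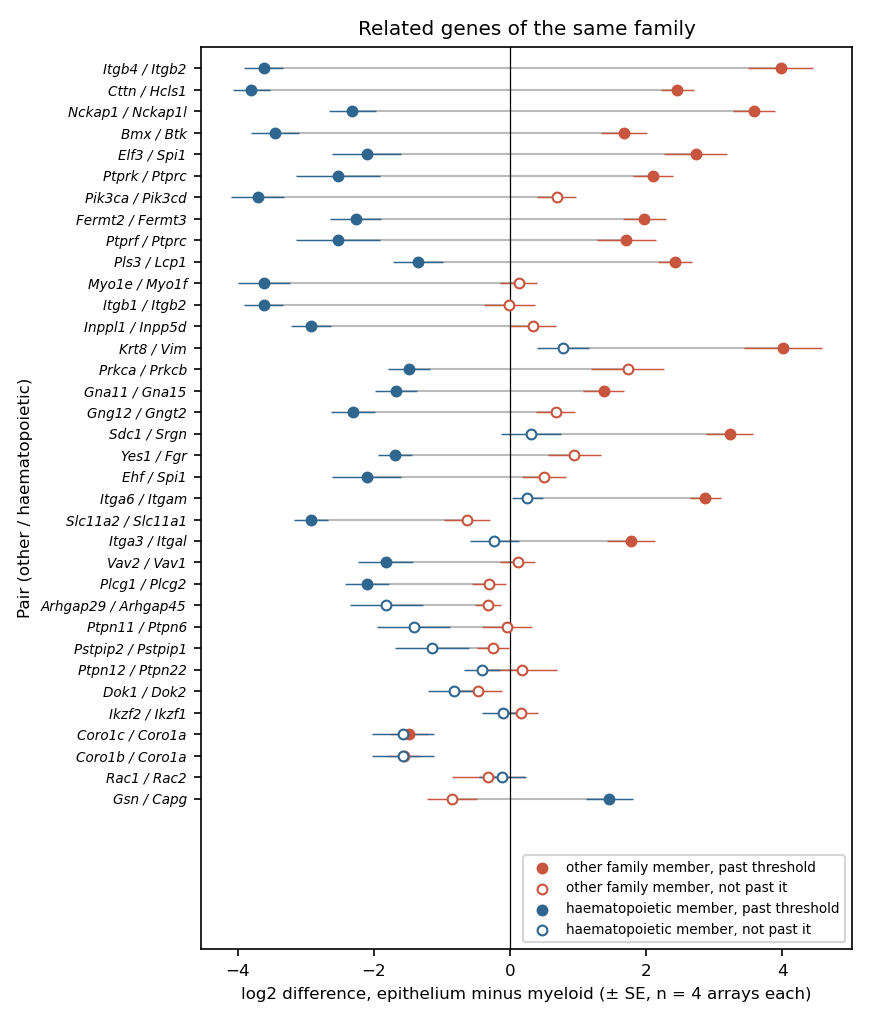
Log2 difference, epithelium minus myeloid (± SE, 4 arrays each), of the 35 measured pairs, with the related gene in orange and the haematopoietic gene in blue; filled points passed an adjusted p of 0.05. The 10 pairs with filled points on opposite sides of 0 lie towards the top, led by Itgb4 (3.98) and Itgb2 (-3.62).

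Many lineage differences did not pass for both cell types of a lineage. Sets defined by a pooled difference past the threshold and arrays that do not overlap are larger than the shared sets, with 633 epithelial and 358 myeloid probe sets. Of the 979 genes that rose, 421 passed for mTEC against both myeloid groups and for cTEC against neither, and 35 did so for cTEC and not mTEC; these are counts of calls, not tests of the difference. Of the 479 that fell, 80 passed for tDC against both epithelial groups and for tMPh against neither, and 72 the other way round. Tested directly, mTEC minus cTEC gave 850 higher (6.84%) and 207 lower probe sets (1.67%), 1057 in all, and tDC minus tMPh gave 190 higher (1.53%) and 255 lower (2.05%), 445 in all. With the replicate block the totals were 1641 and 964. Without the first or second cTEC array the first total was 408 or 551, without the first or second mTEC array 572 or 460, and without the first or second tDC array the second total was 180 or 173. Across the 12422 probe sets the group means correlated at r = 0.889 between mTEC and cTEC and 0.924 between tDC and tMPh, while cTEC and tMPh, of different lineages, stood at 0.913; the values are descriptions over probe sets, and groups share replicate numbers.

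Shared genes still differed within their own lineage in some cases. Among the 111 shared epithelial genes, 6 were higher and 1 lower in mTEC than in cTEC, no larger shares than the 7.81% and 1.94% of all genes. The largest of these differences were those of Ces1d (mTEC minus cTEC 2.87 ± 0.46, limma adjusted p = 0.006), the tachykinin precursor Tac2 (2.26 ± 0.38) and the muscle alpha-actinin Actn3 (2.22 ± 0.45). Tac2 had 124 and 129.7 in mTEC and 17.9 and 28.3 in cTEC, against 1.8 and 3.3 in tDC and 3.2 and 1.9 in tMPh. Among the 68 shared myeloid genes, 2 were higher and 10 lower in tDC than in tMPh, beside 1.90% and 2.57% of all genes. The largest of these differences were those of C1qb (tDC minus tMPh -3.43 ± 0.73, limma adjusted p = 0.041), Lgmn (-3.11 ± 0.40) and properdin, Cfp (-2.90 ± 0.52). Cfp had 74.5 and 32.5 in mTEC and 14.2 and 21.1 in cTEC, against 329.8 and 124 in tDC and 1467 and 1632 in tMPh (-4.03 ± 0.37), and was no longer shared without the first tMPh array.

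Some differences within the lineages ran in parallel. The mTEC minus cTEC and the tDC minus tMPh comparison use separate arrays, though with the same replicate numbers. Both take their error from the same spread of a probe set, pooled over all cell types, so the lists of calls are not independent. In the first of these comparisons 9.74% of genes passed. Of the 157 genes higher in tDC than in tMPh, 63 were also higher in mTEC than in cTEC, which is 40.1% of the tDC list, beside 7.81% of all genes higher in mTEC. It is 9.78% of the mTEC list, beside 1.90% of all genes higher in tDC. The sums of dendritic cell markers, which include Ccl17, Ccl22 and Ccr7, were likewise higher on the mTEC than on the cTEC arrays, as given above, and their part in the count was not tested. Ccl5, a chemokine for activated T cells, had 1564 and 1699 in mTEC and 40.6 and 271 in cTEC, against 2227 and 2312 in tDC and 61.5 and 42.7 in tMPh. Ccl22, a ligand of CCR4, had 1019 and 1145 in mTEC and 44.3 and 206 in cTEC, against 1094 and 3222 in tDC and 69.6 and 70.5 in tMPh. Ccl17, another ligand of CCR4, had 148 and 229 in mTEC and 7.4 and 31.7 in cTEC, against 991 and 869.6 in tDC and 3.9 and 2.8 in tMPh. In each of these the high arrays were the mTEC and tDC ones and the pooled difference between lineages did not pass (0.26, -0.18 and -0.46, adjusted p = 0.824, 0.885 and 0.507). The transcription factor Irf4 had 965 and 960.5 in mTEC and 64.6 and 82.8 in cTEC, against 622 and 391 in tDC and 53.4 and 19.5 in tMPh. The cytokine gene Tnf had 324 and 230.5 in mTEC and 2.9 and 6.5 in cTEC, against 239.7 and 272 in tDC and 11 and 26.2 in tMPh. Adam8, Traf1, Serpinb9, Rtn1 and Tm4sf5 were in the same group, and Tm4sf5 had 239.8 and 210.3 in mTEC and 0.9 and 2.8 in cTEC, against 295 and 351 in tDC and 3.6 and 2.9 in tMPh. In the opposite direction, 31 genes were lower in mTEC than cTEC and in tDC than tMPh, 19.4% of the mTEC list beside 2.57% of all genes lower in tDC, and 14.6% of the tDC list beside 1.94% of all genes lower in mTEC. Cxcl12, Pax1 and Hey1 were among them, with the first tMPh array above the second for Cxcl12 and Pax1 and below it for Hey1. Hpgd, the prostaglandin-degrading dehydrogenase, had 121 and 189 in mTEC and 873 and 922 in cTEC, against 10.6 and 20.7 in tDC and 370.5 and 1598 in tMPh, so that the second tMPh array was the highest of all.

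**Figure D5:**
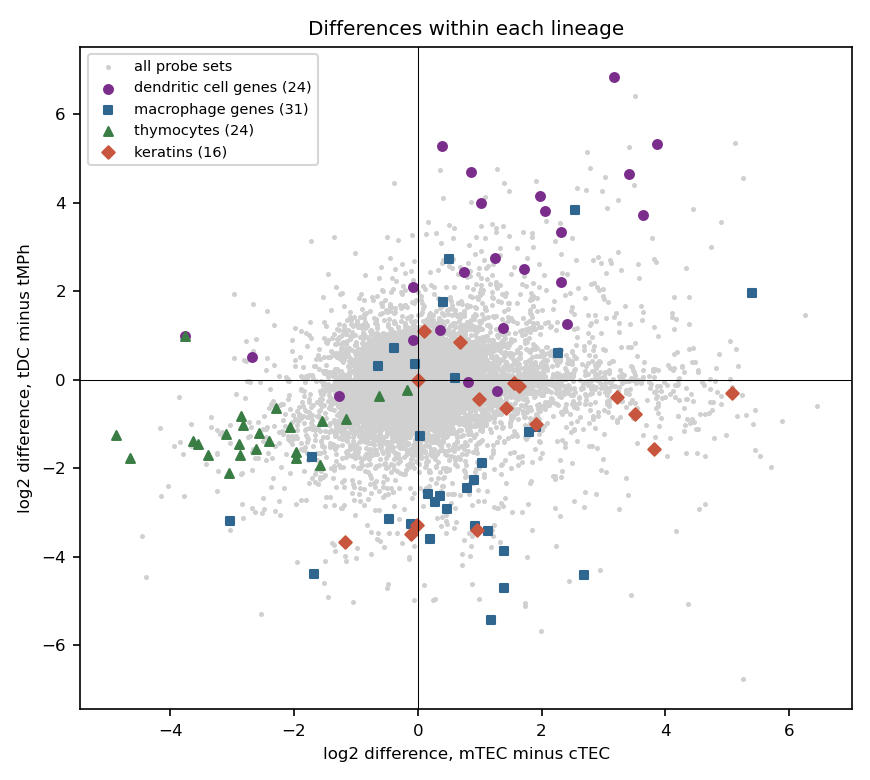
Log2 difference mTEC minus cTEC (horizontal) against tDC minus tMPh (vertical) for all probe sets (grey) and 4 gene lists. Dendritic cell genes extend to the upper right, where Ccl17 lies at 3.16 and 6.84, most macrophage genes lie in the lower part and nearly all thymocyte genes on the left.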

How the data were processed

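The deposited table holds 1 intensity per probe set and array on a linear scale; from the values, the authors scaled each array to a common trimmed mean near 100. No label or header names the software. The members of the comparison and the gene lists were chosen with earlier results of these data known. Control probe sets (66 of 12488) were removed. Values were analysed as log2(signal + 4.8) with limma 3.58.1 in R 4.3.3: a mean for each of 4 groups, eBayes with trend, two-sided tests, Benjamini-Hochberg over all 12422 probe sets, threshold 0.05, no filter on low values. The fit was tested on simulated data. Gene symbols came from GEO's platform annotation, updated to RefSeq on GRCm38.p6 by gene ID: 10833 probe sets had 1 gene, 396 several and 1193 none. Each gene is given by its brightest probe set over the 8 arrays. For 48 named genes with a call there were 58 further probe sets. Of these, 24 had the same call, 34 did not pass and 0 had the opposite one. For 18 genes chosen by the naming rule below, the brightest probe set is of a kind that can be less specific to 1 gene. Among them are Ces1d, Cd68, Lamb1, Fcgr2b, Cd86, Flt3 and H2-Q10. The probe sets of Dsc2 and Gja1 are of these kinds too.

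Chosen by rule, though not all described, were the 12 highest and 12 lowest shared genes, Krt8 and Itgb2, in each list the 4 members with the smallest p and those called against the list, the pairs, and up to 3 shared genes per lineage with the largest difference inside it; other names were chosen after their values were seen. Same-numbered arrays deviated together (r from 0.248 to 0.468 in all 6 pairs of groups, 2 numbers only), and the maximum was lower on each of the 4 arrays numbered 1 than on any of the 4 numbered 2, so the number was treated as a possible batch. The labels do not say what it marks. Identical or near-identical arrays were not found (r between the 2 arrays of a group 0.925 to 0.957). The number of arrays limits the precision. Alternatives changed the normalisation, constant, filter, trend, arrays, replicate block and definition of shared; the values within 1 replicate number, list counts without the first tMPh array and settings for the differences within lineages were chosen after seeing the data.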

Additional observations from a re-analysis of the deposited data

Results flagged for a closer look

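2 genes, Chil3 from the lists and Ehf from the pairs, had both mTEC arrays above and both cTEC arrays below all 4 myeloid arrays. The difference between the 2 epithelial groups passed the threshold, but that test does not ask whether cTEC lay below the myeloid groups. Chil3 rose through mTEC, as given above, so its cTEC group passed against neither myeloid group. For Ehf the cTEC signals (3.8 and 2) and the lowest myeloid signal (4) lay below the added constant, where differences are compressed. A reversal in cTEC was therefore not established for either gene. Chil3, a chitinase-like protein, had 139 and 147 in mTEC and 12.4 and 10.6 in cTEC, against 17.8 and 14.8 in tDC and 21.2 and 16.2 in tMPh; mTEC minus cTEC was 3.18 ± 0.36 (limma adjusted p = 0.00145). Ehf, an epithelial ETS factor, had 51.9 and 23.6 in mTEC and 3.8 and 2 in cTEC, against 6.6 and 9.9 in tDC and 11.1 and 4 in tMPh; mTEC minus cTEC was 2.39 ± 0.46 (limma adjusted p = 0.0143), and its pooled difference of 0.50 ± 0.33 did not pass (adjusted p = 0.413).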

How the results depend on the processing

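No gene chosen by the naming rule with a call changed direction under any setting. Of 142 such genes, not all of them described above, 111 kept it in every fit that held the 4 cell types apart; 60 lost it with lineage as the only factor and 72 with cell type as a random block, settings that count the spread between cell types as error. Those 2 settings gave 571 and 362 probe sets in all, 382 and 241 higher, and 189 and 121 lower; they hold no group contrasts, so shared genes cannot be counted. The replicate block gave 1002 lower, 254 and 154 shared, and 1641 and 964 within lineages; it ended none of these calls and added 12. Fitting all 16 arrays gave 221 shared epithelial probe sets and 798 differing between tDC and tMPh. Shared sets tested against the other lineage's mean held 343 and 190 probe sets. Sets defined by a pooled difference past the threshold and arrays that do not overlap held 633 and 358. Leaving out 1 array gave 1256 to 1800 probe sets in all, 896 to 1248 higher, 352 to 563 lower, 13 to 212 shared epithelial, 35 to 77 shared myeloid, 408 to 1219 between mTEC and cTEC and 173 to 440 between tDC and tMPh; a lone array was then assumed to vary like the other groups. Quantile normalisation moved the median difference by -0.13 and the higher share of calls to 59.4%, against 67.9%. Averaging the probe sets of each gene ended 8 of the calls (Capg, Cd83, Emb, Gna11, Il4ra, Lcp1, Psme1 and Ptprc) and made 33 of the differences smaller by over 1.5 times. The causes were not tested. Dim probe sets limit what could be seen: a member near the constant has its difference compressed, and 2 arrays per group limit the precision of all.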

Other observations

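A further 19 genes were higher in mTEC than in cTEC and higher in tMPh than in tDC, 2.95% of the mTEC list, beside 2.57% of all genes lower in tDC, and 8.96% of the tMPh list, beside 7.81% of all genes higher in mTEC. Both shares are near the background, so only the genes themselves are described. Blnk, an adapter of B cell receptor signalling, had 709 and 944 in mTEC and 14.4 and 59.3 in cTEC, against 57 and 52 in tDC and 343 and 572 in tMPh (mTEC minus cTEC 4.55 ± 0.54, adjusted p = 0.00177, and tDC minus tMPh -2.92 ± 0.54, adjusted p = 0.0232). Apobec1, the cytidine deaminase that edits apolipoprotein B messenger RNA, had 633 and 536 in mTEC and 101 and 145 in cTEC, against 93.3 and 101 in tDC and 729 and 795 in tMPh. Arg1, the urea cycle enzyme arginase that some macrophages also express, had 55.5 and 59.7 in mTEC and 0.9 and 1.3 in cTEC, against 1.5 and 1.6 in tDC and 23.6 and 47.1 in tMPh, and the chemokine Ccl8 81.2 and 89.4 in mTEC and 4.4 and 24.8 in cTEC, against 4 and 4.3 in tDC and 242 and 171 in tMPh. Dmpk, a kinase of muscle, had 428 and 447 in mTEC and 114 and 144 in cTEC, against 28.5 and 21.2 in tDC and 1102 and 921 in tMPh, with tMPh highest. None of these 5 passed in the pooled comparison (adjusted p = 0.953, 0.945, 0.596, 0.858 and 0.198). They were picked after their values were seen.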
